A study of Drosophila melanogaster with 4 samples.

Results

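The 10 genes described here set or carry out neural fate in the fly, and were taken by symbol from the 13968 protein-coding genes of the Ensembl BDGP6 annotation. They comprise the proneural genes ac, sc and ase, the asymmetric division genes brat, pros and mira, the neuronal genes elav, scrt and nerfin-1, and the glial gene repo. For each gene all peaks in the gene span and 10 kb either side, its window, were collected, whatever gene they lay closest to. The genes were chosen with earlier results of these data known, and 2 of them, elav and brat, were already known to be bound in these data.

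Binding of Gug was profiled by chromatin immunoprecipitation and sequencing (ChIP-seq) in whole embryos of Drosophila melanogaster, collected 0 to 24 h after egg laying. All 4 samples form 1 group of biological replicates from the strain Gug-GFP, whose flies express Gug as a fusion with eGFP, and an antibody against GFP was used for the precipitation. Chromatin was sonicated to 200 to 800 bp. Such embryos mix all tissues and stages, neuroblasts being a minority of their cells, so binding in a few cells and weak binding in many cannot be told apart. No control sample is part of the group, and untagged embryos or other stages were not analysed here.

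Gug (Grunge) is the fly Atrophin, a nuclear co-repressor that is brought to DNA by other factors such as the nuclear receptor Tailless. In the embryonic ectoderm, proneural basic helix-loop-helix (bHLH) factors make groups of cells competent to become neuroblasts, the neural stem cells. A neuroblast divides asymmetrically and hands determinants such as Prospero and Brat to the smaller daughter, which gives rise to neurons or glia.

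The strongest regions by mean signal rank lay at elav and brat, close to a transcription start site (TSS) and in the upper part of all 4 lists. Both genes were already known to be bound. A count of 2 of 10 genes with a region within 1 kb of a TSS is near the share of all genes, 15.9%. The windows of ac, sc and ase held no peak in any list. At the density of the chromosome arms, 1.24 regions with a peak in at least 2 lists would lie there. The sequences at the 3 strongest summits are shown first because the later account of position and of short motifs refers to them. That of a brat intron peak is added because it was ranked in all 4 replicates but passed the IDR threshold in replicate 2 only. Each is 201 bases of the dm6 build, read from the RefSeq Release 6 genome around the median summit, 5′ to 3′ on the strand of the gene, and capitals mark GAGAG or its reverse complement CTCTC, the core letters bound by GAGA factor.
elav, upstream summit, chrX:523332-523532, minus strand: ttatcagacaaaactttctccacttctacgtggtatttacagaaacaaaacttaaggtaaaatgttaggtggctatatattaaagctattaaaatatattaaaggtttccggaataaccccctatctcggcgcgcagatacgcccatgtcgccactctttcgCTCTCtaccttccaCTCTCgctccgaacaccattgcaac
elav, downstream summit, chrX:522546-522746, minus strand: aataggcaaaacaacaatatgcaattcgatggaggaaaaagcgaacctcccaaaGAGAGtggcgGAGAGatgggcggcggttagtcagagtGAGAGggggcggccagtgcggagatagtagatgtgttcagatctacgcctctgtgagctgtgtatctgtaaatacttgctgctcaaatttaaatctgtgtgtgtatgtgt
brat, summit before the third TSS, chr2L:19165092-19165292, plus strand: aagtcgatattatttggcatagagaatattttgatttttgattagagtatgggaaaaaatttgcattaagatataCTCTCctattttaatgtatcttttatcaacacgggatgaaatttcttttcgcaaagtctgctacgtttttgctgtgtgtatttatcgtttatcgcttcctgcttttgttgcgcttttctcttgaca
brat, intron summit in the list of replicate 2, chr2L:19141813-19142013, plus strand: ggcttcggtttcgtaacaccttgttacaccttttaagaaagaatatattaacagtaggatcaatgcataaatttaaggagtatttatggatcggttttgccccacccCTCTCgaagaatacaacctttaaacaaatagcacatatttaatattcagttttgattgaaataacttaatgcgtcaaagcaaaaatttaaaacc

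The thresholded peak lists of replicates 1 to 4 held 1948, 3786, 2117 and 2450 peaks, with a lowest IDR score (a scaled measure of rank agreement, at most 1000) of 830 in each. The depth of the libraries is unknown because the files give no read counts. Summits within 200 bp were joined across lists, which gave 4466 regions, of which 2643 had a peak in at least 2 lists. A region below means one of these 2643 unless a single list is named. The strength of a peak is given as its signal percentile, the share of the peaks in its own list with a signal at or below it, since the authors' signal is comparable only within a list. The lists differ in length, so a percentile also depends on how many weaker peaks its list holds. Distances to a TSS are negative upstream of it.

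Of the 10 neural genes, 4 had a region in their window, brat, elav, pros and repo, against 6898 of all protein-coding genes (49.4%). The share depends on gene length. Among the 6 neural genes with a span under 5 kb, 1 had a region (repo), and the share over all genes of that length was 46.3%. Among the 4 with a span of at least 10 kb, 3 had one (brat, elav and pros), and over all genes of that length the share was 59%. With a peak in at least 1 list nerfin-1 was added, which made 5 of 10 against 63.5% of all genes, and with a region in all 4 lists brat, elav and pros were left, against 28.5%. The counts over windows were thus close to what the shares of all genes give. Single lists gave 4, 4, 3 and 4 of the neural genes for replicates 1 to 4, against 37.4%, 59.2%, 43.9% and 44.9% of all genes. In every list elav, brat and pros were among them, whereas repo appeared in replicates 1 and 2 and nerfin-1 in replicate 4.

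Close to a gene's own TSS the count was 2 of 10, elav and brat, which had a region within 1 kb, against 15.9% of all genes. The same 2 were the gene of the nearest TSS for at least 1 region at any distance, against 14.7% of all genes. The windows of all 10 held 7 regions in 364 kb, or 19.2 per Mb, the same density as on the chromosome arms as a whole, where 6.99 regions would lie in windows of that length. Of these 7 regions, 5 (71.4%) lay within 1 kb of some TSS, against 61.8% of all regions. For only 3 of the 7 was the nearest TSS that of the neural gene itself. The plot of signal percentiles by region shows that the elav pair and a single brat region stood at 77.6 or above in every list, and that no other region in these windows did.

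**Figure D1:**
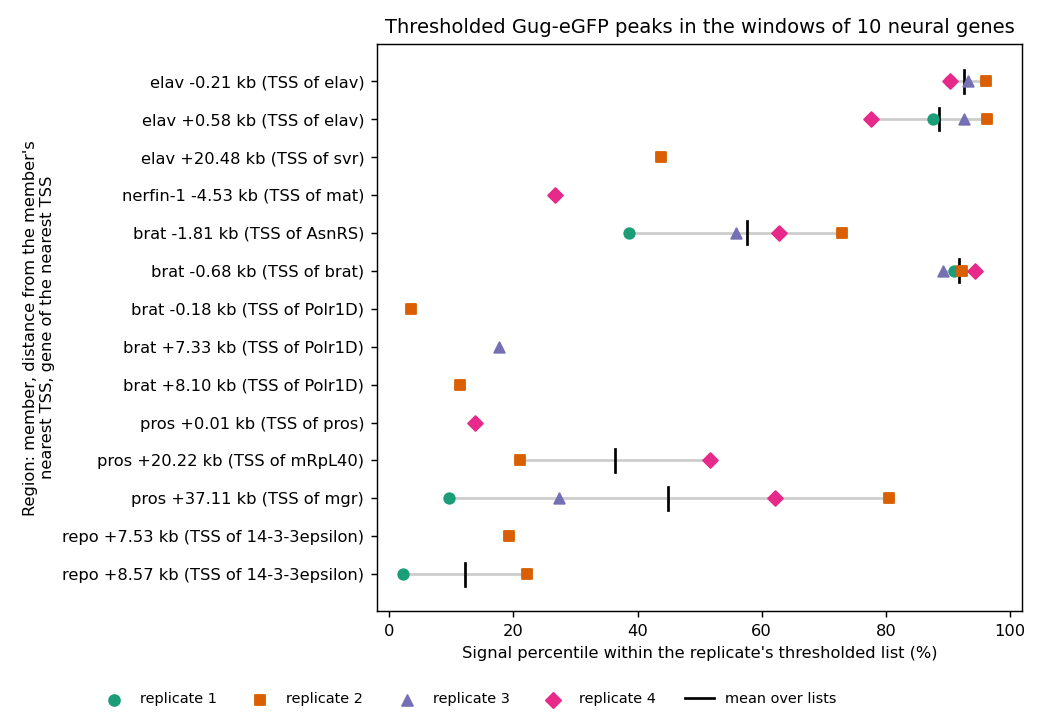
Signal percentile (percent, x axis) of each thresholded peak in the windows of the neural genes, 1 row per region, named by gene, distance from that gene's nearest TSS and the gene of the nearest TSS. Points are the 4 replicates, grey lines join the lowest and the highest, and black bars are means over the lists that hold the region. The upper 2 elav rows and the brat row named for its own TSS lie farthest right with 4 points each, and rows with 1 point were found in a single list. In the top row the point of replicate 1 (90.3) lies under that of replicate 4 (90.4).

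elav encodes an RNA-binding protein of postmitotic neurons and is the usual pan-neuronal marker. It lies on X at 509235 to 523226 on the minus strand, with annotated TSSs at 520285 and 523226. The stronger of its 2 regions by mean percentile, at 523322 to 523650, had its summit at -206 bp from the distal TSS. Its percentile was 90.3, 96.2, 93.3 and 90.4 in replicates 1 to 4, a mean of 92.6 ± 2.79 (SD, n = 4), so all 4 replicates ranked it close to the top of the list. Its strongest summits spanned 126 bp over the replicates, because that of replicate 4 lay at 523533 and the others between 523407 and 523432. In replicate 1 a further, weak peak of percentile 1.75 lay in the same region.

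The other elav region, at 522532 to 522747, had its summit at 580 bp downstream of the same TSS, inside an elav intron. Its percentile was 87.7, 96.4, 92.6 and 77.6 in replicates 1 to 4 (mean 88.6 ± 8.11 SD, n = 4), lowest in replicate 4, and its summits spanned only 17 bp. The mean difference between the elav regions is smaller than the spread of the downstream one between replicates. Within replicates, the upstream region stood higher in replicates 1, 3 and 4 and slightly lower in replicate 2 (96.2 against 96.4). Both summits were resolved in every list, 754, 796, 756 and 893 bp apart in replicates 1 to 4, so they flank the TSS rather than cover it. Both also lie within an intron of arg, the arginase gene, which runs through elav on the opposite strand at 509435 to 528028, but whose nearest TSS is 13997 bp from the upstream summit. The third peak in the elav window belonged by position to svr, a carboxypeptidase gene. It lay at -148 bp from the svr TSS and was found in replicate 2 alone, at percentile 43.8.

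brat encodes a translational repressor of growth that is inherited by the differentiating daughter of a neuroblast. It spans 45.9 kb of 2L at 19133816 to 19179758 on the plus strand, with TSSs at 19133816, 19158540 and 19165867. Its strongest region, at 19165065 to 19165268, lay in an intron with its summit at -675 bp from the third TSS. Its percentile was 91.0, 92.3, 89.2 and 94.4 in replicates 1 to 4 (mean 91.7 ± 2.20 SD, n = 4), and its summits lay within 25 bp of each other. All 4 replicates therefore agree on its rank and place. The other region found in all 4 lists, at 19131851 to 19132159, lay at -1814 bp from the first brat TSS but at -48 bp from the TSS of AsnRS, an aminoacyl-tRNA synthetase gene. Its percentile was 38.6, 73.0, 55.9 and 62.8 in replicates 1 to 4 (mean 57.6 ± 14.5 SD, n = 4), below that of the intronic region in each replicate.

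At the first brat TSS itself only replicate 2 had a thresholded peak, at -180 bp and percentile 3.46, which lay closer to Polr1D, an RNA polymerase subunit gene, at -153 bp. The longer ranked lists, which hold 49135, 36545, 40137 and 32752 peaks and include those below the IDR threshold, shared a joined region there in all 4 replicates, at -117 bp. Its percentiles within those lists were 58.5, 87.9, 83.4 and 91.0 and its IDR scores 69, 1000, 83 and 571, so it passed the threshold in replicate 2 alone. A further pair of single-list peaks lay in the first part of the gene, at 7327 bp and 8097 bp downstream of that TSS. The peak at 7327 bp was thresholded in replicate 3 only, at percentile 17.6. The peak at 8097 bp was thresholded in replicate 2 only, at percentile 11.3. In the ranked lists it was present in all 4 replicates, with percentiles of 94.6, 90.1, 95.4 and 94.6 and IDR scores of 674, 978, 827 and 743. It thus passed the threshold of 830 in replicate 2 and came within a few units of it in replicate 3.

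pros encodes a homeodomain factor that switches the neuroblast's daughter from self-renewal to differentiation. It is the longest of the 10 genes, 79.1 kb of 3R at 11328480 to 11407627 on the plus strand, and held no region within 1 kb of any of its 4 TSSs. The region with most lists in its window, at 11409725 to 11410222, lay beyond the gene's end at -26 bp from the TSS of mgr, a prefoldin subunit gene. Its percentile was 9.65, 80.6, 27.3 and 62.1 in replicates 1 to 4 (mean 44.9 ± 32.3 SD, n = 4). Its place within the thresholded lists thus differed widely and was low in replicates 1 and 3. In the longer ranked lists the same region stood at 96.0, 98.0, 96.0 and 97.2. Strong peaks crowd near the top of a list of that length, so the narrower spread shows no closer agreement. By rank from the strongest peak, it was number 1761, 737, 1540 and 929 in the thresholded lists of replicates 1 to 4. The second region, at 11392852 to 11393160, lay in the pros 3′ UTR, 20220 bp downstream of the nearest pros TSS, at percentiles 21.1 in replicate 2 and 51.7 in replicate 4. It was not thresholded in replicates 1 and 3. At the fourth pros TSS, at 11372788, replicate 4 alone had a peak, 12 bp downstream in the 5′ UTR, with percentile 13.8, and its IDR scores in the ranked lists of replicates 1 to 4 were 248, 78, 18 and 983.

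**Figure D2:**
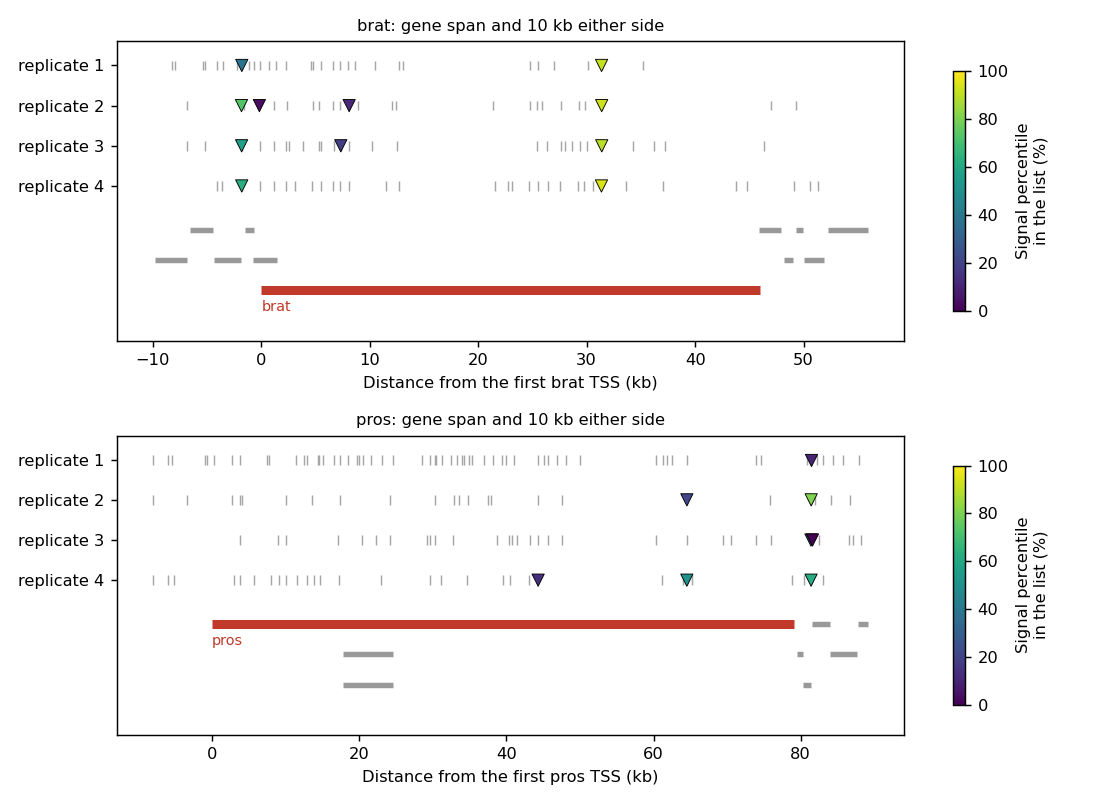
Peaks along brat (upper panel) and pros (lower panel) by distance from the first TSS (kb), 1 row per replicate. Triangles are thresholded peaks coloured by signal percentile, grey ticks are all peaks of the ranked lists, and bars are gene spans, the neural gene in red. brat has aligned triangles in all 4 rows just before the gene and within it, and pros has them in all 4 rows only beyond its end.

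mira encodes the adaptor that carries Prospero and Brat to the basal side of the dividing neuroblast. Its window on 3R held no thresholded peak in any replicate. In the ranked lists its span of 19931799 to 19935120 held a peak of percentile 80.5 in replicate 1, none in replicate 2, and peaks of percentile 1.21 and 23.1 in replicates 3 and 4. The replicates thus shared no ranked peak inside mira.

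The proneural genes ac and sc encode bHLH factors that give ectodermal cells the competence for neural fate, and ase encodes a related factor of neural precursors. They lie in the achaete-scute complex on X, ac at 370031 to 370947, sc at 396060 to 397497 and ase at 460747 to 463176. Their 3 windows held 0 peaks in each of the 4 thresholded lists. At the density of the arms, 1.24 regions would lie in 64.8 kb, and a count of 0 allows up to 46.3 regions per Mb (3 counts, counting error only), so the windows alone do not show a density below that of the arms. The whole stretch from the start of the ac window to the end of the ase window, 113 kb with 9 protein-coding genes that include y and l(1)sc, was also free of peaks.

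The peak-free stretch around these genes was longer still. The nearest summits in any list lay at 245940 near G9a, in 1 list, and at 493966 near CG17896, in all 4 lists, which leaves 248 kb between them. Of 4446 gaps between neighbouring regions of any list on 2L, 2R, 3L, 3R and X, 36 were at least as long, and the median gap was 10.9 kb. Those 36 gaps made up 17.4% of the length between the outermost regions of these arms, so stretches of this length are not rare by position. The complex lies near the tip of X, and no region with at least 2 lists was found between the start of X and ac, a distance of 370 kb. The CG17896 region, at -471 bp from that gene's TSS, had percentiles of 96.2, 99.0, 98.1 and 94.6 in replicates 1 to 4 (mean 97.0 ± 1.96 SD, n = 4), so a strong region lay 30.8 kb beyond ase. elav starts 46.1 kb beyond ase, and the map from ac to elav shows the empty proneural stretch and the strong elav pair side by side.

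**Figure D3:**
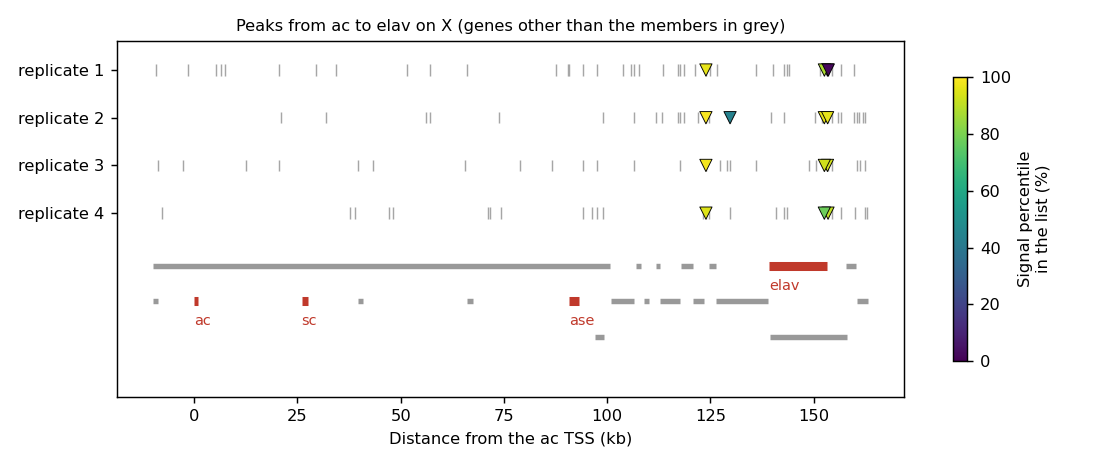
Peaks on X from 10 kb before ac to 10 kb beyond elav, by distance from the ac TSS (kb), 1 row per replicate. Triangles are thresholded peaks coloured by signal percentile, grey ticks are all peaks of the ranked lists, and bars are gene spans with the neural genes in red. No triangle lies over ac, sc or ase, all 4 rows have a triangle at CG17896 between ase and elav, and all 4 rows have triangles at the right-hand end of elav, where its distal TSS lies.

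Peaks of the ranked lists were counted there too, although the gap was picked for holding no thresholded peak. A low count of ranked peaks is therefore no separate evidence, and no other gap of this length was compared here. The 248 kb gap held 40, 25, 32 and 36 ranked peaks in replicates 1 to 4. That is 161, 101, 129 and 145 per Mb, against 357, 266, 292 and 238 per Mb over all arms, lower in all 4 replicates. The spans of ac and sc held no ranked peak in any replicate. That of ase held 1, in replicate 1 alone, 113 bp downstream of the TSS and of percentile 23.0. Within the ase window a ranked peak near 464164 recurred in replicates 1, 3 and 4, with percentiles of 92.0, 89.1 and 67.5 but IDR scores of only 38, 177 and 52.

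scrt, nerfin-1 and repo had no thresholded peak within 1 kb of a TSS. scrt encodes a zinc finger factor of the Snail family that promotes neuronal fate. Its window held no thresholded peak, and the strongest ranked peak in its span of 3983896 to 3994003 on 3L had percentiles of 72.5, 45.2, 55.2 and 21.2 in replicates 1 to 4. Those peaks lay at different places in the 4 replicates.

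nerfin-1 encodes a zinc finger factor of young neurons. Its window on 3L held 1 thresholded peak, in replicate 4, at percentile 26.7 and at -4534 bp from the nerfin-1 TSS, nearest to mat. Just before its own TSS, at -339 bp, the ranked lists shared a joined region in all 4 replicates, with percentiles of 92.7, 59.8, 88.4 and 89.0 (mean 82.5 ± 15.2 SD, n = 4). Its IDR scores of 207, 66, 165 and 645 were all below the threshold, so the signal ranked high in 3 of 4 ranked lists without passing the threshold in any.

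repo encodes the homeodomain factor that sets glial fate. Its span of 18236192 to 18239602 on 3R held no thresholded peak. The thresholded peaks of its window all lay past its end in an intron of 14-3-3epsilon, an adaptor protein gene. One was found in replicate 2 alone, at percentile 19.4 and 1034 bp downstream of the 14-3-3epsilon TSS. The region with 2 lists, at 18244568 to 18244968, had percentiles of 2.26 in replicate 1 and 22.1 in replicate 2 and lay 2077 bp downstream of that TSS. It was absent from replicates 3 and 4, and it no longer counted as a region without replicate 1, without replicate 2 or with 100 bp as the joining distance. The authors' conservative and longest lists, derived from all 4 alignments, did not hold this region. Both held the peak found in replicate 2 alone. Inside repo the strongest ranked peak had percentiles of 66.4, 57.5, 70.2 and 82.1 in replicates 1 to 4.

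With the ranked lists in place of the thresholded ones, 4 of the 10 genes (brat, elav, nerfin-1 and pros) had a joined region of all 4 lists within 1 kb of a TSS, against 24.6% of all genes. For pros these were regions at -570 bp and 30 bp from a TSS, with mean percentiles of 42.3 ± 30.7 and 82.2 ± 11.5 (SD, n = 4 each). Besides those at -117 bp and -675 bp from a TSS, brat had one at 738 bp downstream of its second TSS, with percentiles of 93.2, 87.1, 92.1 and 92.1 and IDR scores of 271, 520, 198 and 116.

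**Figure D4:**
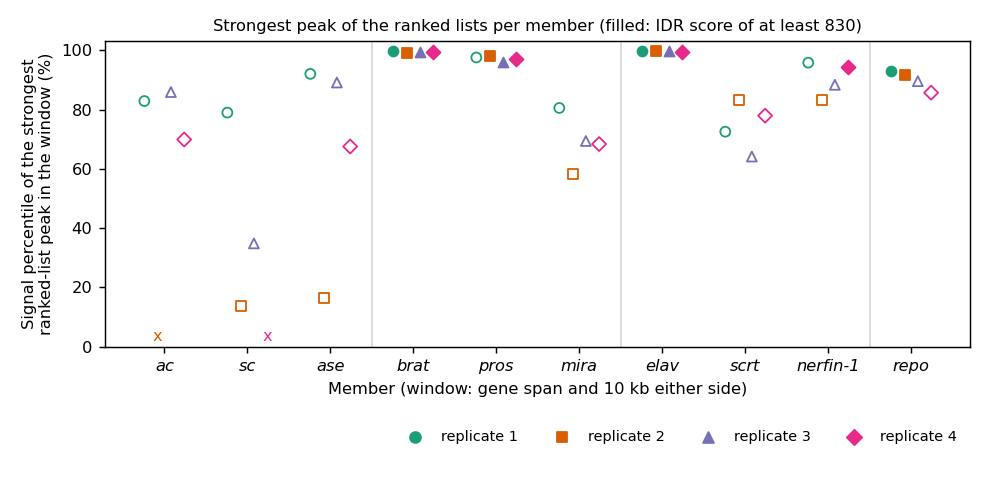
Signal percentile within the ranked list (percent, y axis) of the strongest ranked peak in each gene's window, for replicates 1 to 4. Filled symbols have an IDR score of at least 830, open symbols a lower one, and a cross marks a list with no peak in the window. elav and brat are filled and near the top in all 4 replicates, while ac, sc, ase, mira and scrt have open symbols or crosses only.

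By role, the asymmetric division genes held 4 regions in 188 kb of window (21.2 per Mb), the neuronal genes 2 in 87.3 kb (22.9 per Mb), repo 1 in 23.4 kb and the proneural genes 0 in 64.8 kb. Single lists held 3, 6, 5 and 5 peaks for asymmetric division, 3, 3, 2 and 3 for the neuronal genes and 0 in each replicate for the proneural genes. The counts rested on few genes, since brat and pros gave all 4 regions of the first role and elav both of the second. The proneural genes are also shorter than most of the others, so the comparison per Mb is the fairer one. In the ranked lists the proneural windows held 201, 46.3, 92.6 and 77.2 peaks per Mb, against 510, 265, 345 and 361 in the asymmetric division windows and 435, 424, 309 and 344 in the neuronal windows. The proneural value was the lowest of the 3 roles in every replicate, but its windows all lie in 1 complex on X. Within the asymmetric division role the mira window held 214, 129, 300 and 257 per Mb, below the value of its role in every replicate.

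Among short motifs searched on both strands in 201 bases around each summit, GAGAG was found in 6 of the 7 regions of the neural windows, against 25.0% of all 2643 regions. In the printed sequences it occurs at 62 and 76 bases after the upstream elav summit, at -46, -36 and -9 from the downstream elav summit, at -25 from the summit before the third brat TSS and at 7 from the brat intron summit. The E-box CAGCTG, a class of sequence bound by proneural factors, was found in 0 of 7, against 10.7% of all regions, and the E-box CAGGTG in 1 of 7, against 6.21%. AAGTCA, the sequence bound by Tailless, was found in 1 of 7, against 9.69%. TATAAA was found in 2 of 7 against 31.9%, TAATTA in 1 of 7 against 14.3%, and TATCGATA, CGTGNGAA and GGTCACACT in 0 of 7 against 4.05%, 1.70% and 1.48%. None of these motifs contains another. The GC content was 42.3% ± 10.8 (SD, n = 7 regions) in the neural windows and 38.2% ± 6.40 (SD, n = 2643) over all regions. A match describes letters only, and none of these shares was tested.

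The regions most like the upstream elav region in their 4 percentiles, by Euclidean distance among regions with all 4 lists, lay nearest to Msp300 (1.83), jigr1 (2.12) and Faf2 (2.13). Those most like the third-TSS region of brat lay nearest to CG1907 (2.24), CG3149 (2.60) and CG44286 (2.69).

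A wider list of 60 neural genes, chosen by textbook role and without the 10, placed these values in context. That list too was drawn up with earlier results of these data known. Of the 60, 36 (60%) had a region in their window and 9 (15%) had one within 1 kb of a TSS, against 49.4% and 15.9% of all genes. Cell polarity and asymmetric division genes had 11 of 13 with a region in the window and 5 of 13 near a TSS. numb, which encodes a Notch inhibitor handed to 1 daughter cell, led these 5, with percentiles of 90.0, 90.9, 62.9 and 84.8 in replicates 1 to 4 (mean 82.2 ± 13.1 SD) at -166 bp, so only replicate 3 ranked it clearly lower. The others were the polarity gene par-6 (73.3 ± 12.6, 4 lists, nearest to CG8188), the scaffold gene dlg1 (61.4 ± 25.9, 3 lists), stau, which encodes an RNA-binding protein that localizes pros mRNA (47.3 ± 9.64, 2 lists), and the spindle orientation gene pins (45.4 ± 12.6, 4 lists, nearest to wdb).

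Neuroblast transcription factors gave the lowest shares of the wider list. Of 18 of them 3 had a region in the window (dpn, grh and Dr, 16.7%) and 0 had one near a TSS, and hb, Kr, svp, cas and the Snail family genes wor, esg and sna had neither. Of 7 further proneural and precursor bHLH genes 3 had a region in the window (amos, da and emc), and 1 had it near a TSS, da, which encodes the common bHLH partner of the proneural factors (40.4 ± 14.5, 3 lists, at -94 bp). l(1)sc, ato, cato and tap had none. Neuronal differentiation genes had 11 of 14 with a region in the window but only lola near a TSS (percentiles of 16.7 in replicate 2 and 23.3 in replicate 4). All 8 glial genes had a region in the window, and 2 near a TSS. Over all genes these shares were 49.4% and 15.9%. moody, which encodes a receptor of the glial blood-brain barrier, had the strongest region near a TSS in the list, with percentiles of 98.4, 99.6, 98.8 and 98.4 in replicates 1 to 4 (mean 98.8 ± 0.564 SD), and pnt, an ETS factor gene, had 44.1 ± 21.9 in 3 lists.

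Gene length differed along with these counts. The median span was 1.22 kb for the bHLH genes, 4.41 kb for the neuroblast factors and 14.8 kb for polarity and asymmetric division. It was 24.6 kb for neuronal differentiation and 9.78 kb for the glial genes, against 2.16 kb over all genes. Over all genes, a region in the window was found for 46.3% of spans under 5 kb and 59% of spans of at least 10 kb. The part of length in the group counts was not tested.

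**Figure D5:**
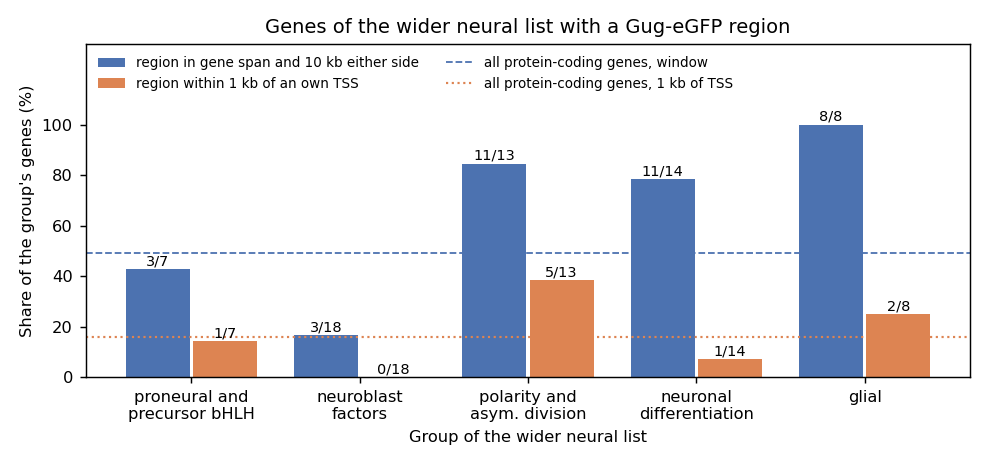
Share of genes (percent, y axis) with a region in the window (blue) and within 1 kb of an own TSS (orange) for 5 groups of the wider neural list, with counts above the bars, against all protein-coding genes (blue dashed and orange dotted lines at 49.4% and 15.9%). The window bars of polarity and asymmetric division, neuronal differentiation and glial genes lie above the dashed line, and those of bHLH genes and neuroblast factors below it. The lines are not matched for gene length.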

How the data were processed

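ChIP-seq for Gug-eGFP was done on 4 biological replicates of 1 group, with no control sample. Files were the authors' peak lists on dm6, made per replicate from its own alignment and further inputs whose role is not stated, per the README deposited with each sample. No source used here names the aligner or the peak caller (not given in the sources used here). The deposited signal of each peak is the authors' own value and was used only as a rank within its list. The deposited score is the authors' scaled IDR score. Depth is unknown, as no read counts are given.

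Summits on the 7 arms were joined within 200 bp with Python 3.11.15, pandas 2.3.3 and numpy 2.4.6. A region needed peaks in at least 2 lists. Genes and TSSs came from Ensembl release 115. No peak lay outside the reference lengths. Joining was tested on simulated data, where 200 of 200 planted regions were recovered. The planted summits lay well within the joining distance, so regions with more scattered summits were not tested. No test was made over the genes, since the members and lists were chosen with earlier results of these data known. Counts are descriptions, and any SD is over lists. Genes were named by rule as the 10 members, all regions in their windows, all wider-list genes with a region near a TSS, the 3 regions nearest in percentile to each leading region, and the strongest ranked peak of members without a region. Other wider-list genes, ranked regions of all 4 lists and the neighbours of the achaete-scute complex were named after their values were seen. Alternatives changed the lists required, joining distance, thresholds, region set, windows, TSS distance and assignment, and left out each replicate. The length classes, the joined ranked lists and the stretch from ac to ase were added after seeing the data.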

Additional observations from a re-analysis of the deposited data

Results flagged for a closer look

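Among 18 sets of 4 replicate values, 2 had a replicate set apart from the other 3. Chance gives about 1 in 20 for measured values, a rate that does not hold for small tied counts such as the first of them, where any single difference is picked out. The thresholded list of replicate 3 held 2 peaks in the windows of the neuronal genes, where replicates 1, 2 and 4 held 3 each. All 4 lists held both elav peaks, and the additional peak was a weak second one at elav in replicate 1, the svr peak in replicate 2 and the peak near mat in replicate 4. The ranked list of replicate 1 held 442 peaks per Mb in the 10 windows, against 280, 308 and 308 per Mb in replicates 2, 3 and 4, and that list was also the densest over all arms (357 per Mb).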

How the results depend on the processing

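The number of neural genes with a region in the window stayed between 3 and 5 of 10 in all 16 alternatives, and the proneural genes had 0 regions in each of them. brat, elav and pros had a region in every alternative. In the authors' conservative and longest lists the repo region was the peak found in replicate 2 alone, not the one with 2 lists. repo was lost with at least 3 lists, all 4 lists, joining within 100 bp, the stronger 50% of each list, lists of equal length, the gene span only or 5 kb either side, each of which gave 0 glial regions, and leaving out 1 replicate gave 0 to 1. Peaks of at least 1 list gave 14 regions in the windows, 8 for asymmetric division, 4 neuronal, 2 glial and 18 wider-list genes near a TSS. The authors' longest list gave 16 regions, 10 for asymmetric division, 5 neuronal and 18 wider-list genes, and their conservative list 4 neuronal regions and 14 wider-list genes. The gene span only gave 3 regions, 2 for asymmetric division and 1 neuronal, with 3 of the 10 genes against 7.94% of all genes. Those genes, brat, elav and pros, span 45.9, 14.0 and 79.1 kb, against a median of 2.16 kb over all genes. No share matched for length was computed for that setting, so the difference cannot be read as an excess. With 20 kb either side there were 13 regions, 4 of them neuronal and 3 glial. A TSS window of 500 bp left 1 gene, elav, since the brat summit lies farther off, and 2 kb gave 14 wider-list genes. All 4 lists gave 5 and the stronger 50% gave 4 of those. Except for the windows and list rules, whose construction sets the counts, the cause was not tested.

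Leaving out 1 replicate gave 5 to 7 regions in the windows and 2 genes near a TSS. Unknown depth means that an absent peak shows no more than that none passed the authors' threshold. No paired analysis was possible because the samples form 1 group.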
